A study of Mus musculus with 12 samples.

Results

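Kap, Akr1c14, Akr1c18, Akr1c21, Cyp4b1 and Acsm3 are 6 mouse genes that proximal tubule cells of the kidney express under the influence of androgens. They were chosen by name and matched to the gene symbols of the deposited count table. All 6 were found among its 39171 genes, and all 6 were among the 15589 genes with counts high enough to be tested. Kidney RNA of male mice up to 3 months old was sequenced, with 1 library for each of 12 mice. Sick knock-in mice (4) and healthy knock-in mice (4) were both homozygous for Gne M743T, a substitution in the bifunctional enzyme that starts sialic acid synthesis, and carried the names the submitters gave to their state. Wild-type mice (4) had no knock-in allele. The labels do not say what defined a sick mouse, so the 2 knock-in groups differed in state and not in the stated genotype. Nothing in the labels says whether mice of a group were littermates, and p-values set group differences against the spread between these mice.

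Androgens are steroid hormones that cross the membrane of the epithelial cell and change the transcription of genes in its nucleus. The proximal tubule, the segment that reabsorbs most of the filtered glucose, phosphate, amino acids and protein, expresses many genes at higher levels in male than in female mice, and castration is known to lower a number of them. Among the 6 genes, Kap encodes the kidney androgen-regulated protein, a small secreted protein that is 1 of the most abundant transcripts of the male mouse kidney. Akr1c14, Akr1c18 and Akr1c21 encode aldo-keto reductases that reduce or oxidise steroids, Cyp4b1 a cytochrome P450 that oxidises fatty acids and foreign compounds, and Acsm3 a mitochondrial ligase that activates medium-chain fatty acids with coenzyme A.

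All 6 genes were lower in sick knock-in kidneys than in either other group. The differences spanned 3.42-fold for Akr1c21 to 91.5-fold for Akr1c18 against wild-type mice. In healthy knock-in against wild-type mice none of the 6 passed edgeR's quasi-likelihood test. In wild-type mice 2 Kap stood at 0 counts, and the Kap differences from wild-type mice are given with and without that mouse.

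The upstream sequences of 4 of the genes are shown. Akr1c14 and Akr1c18, which had the largest differences from wild-type mice, are not among them. Kap and Acsm3 had the most similar pattern among the 6 when wild-type mouse 2 was left out, Cyp4b1 was the only 1 of the 6 with a match to a single arm of the androgen response element, and Akr1c21 had the smallest difference. Each line holds the 250 bases before the RefSeq start site on build GRCm38.p6, read 5′ to 3′ on the strand of the gene, with motif matches in capitals. Kap lies on the minus strand at chr6:133853668-133853917, Acsm3 on the plus strand at chr7:119760673-119760922, Cyp4b1 on the minus strand at chr4:115647722-115647971 and Akr1c21 on the plus strand at chr13:4573825-4574074.
Kap: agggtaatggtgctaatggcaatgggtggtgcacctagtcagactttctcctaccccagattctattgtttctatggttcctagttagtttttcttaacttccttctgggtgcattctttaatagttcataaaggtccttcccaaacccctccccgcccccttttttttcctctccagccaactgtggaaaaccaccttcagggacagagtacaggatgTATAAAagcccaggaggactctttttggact
Acsm3: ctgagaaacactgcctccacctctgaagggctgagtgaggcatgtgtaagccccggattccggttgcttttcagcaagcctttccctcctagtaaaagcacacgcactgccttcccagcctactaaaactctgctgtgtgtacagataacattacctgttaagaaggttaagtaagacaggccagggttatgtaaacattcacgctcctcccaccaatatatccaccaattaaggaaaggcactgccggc
Cyp4b1: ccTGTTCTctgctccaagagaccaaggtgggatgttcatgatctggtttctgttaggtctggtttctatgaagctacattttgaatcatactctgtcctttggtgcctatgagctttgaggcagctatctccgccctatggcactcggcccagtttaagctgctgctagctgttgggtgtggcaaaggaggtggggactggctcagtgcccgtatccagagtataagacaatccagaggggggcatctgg
Akr1c21: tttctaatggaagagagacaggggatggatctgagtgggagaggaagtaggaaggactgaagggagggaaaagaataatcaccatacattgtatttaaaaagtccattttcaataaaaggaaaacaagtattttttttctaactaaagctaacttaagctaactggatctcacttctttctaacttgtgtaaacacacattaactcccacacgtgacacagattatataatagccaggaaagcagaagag

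Both strands of a 300-base window, from 250 bases before to 50 after the start, were searched for all 6 genes. The palindromic androgen response element, AGAACA and TGTTCT facing each other across a gap of 3 bases, was in none of the 6 windows and in 0.00913% of 32851 promoters. A single arm of it, AGAACA on either strand, was in 19.0% of promoters and in Cyp4b1 alone among the 6, at 248 bases before the start, where it reads TGTTCT. Each palindrome also holds this arm. The HNF4 direct repeat, AGGTCA and AGGTCA with 1 base between (0.0396% of promoters), and the HNF1 site (0.0609%), for 2 factors of proximal tubule cells, matched none of the 6. The TATA box TATAAA, which was added after the sequences had been seen, was in 13.6% of promoters and in Kap alone among the 6, at 31 bases before the start. A match here is a run of letters and was not tested for binding.

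Total counts were 10605546 to 22633684 in sick knock-in, 18191087 to 21925419 in healthy knock-in and 13189478 to 19493856 in wild-type libraries. Levels are in CPM, counts scaled to a common library size, scaled by TMM, edgeR's correction for differences in composition, with factors of 1.23 to 1.39 in sick knock-in libraries and 0.804 to 0.933 in the other 8. The library of wild-type mouse 2 stood apart from the other wild-type libraries, with a chi-square of counts per degree of freedom of 174 to 212 in its 3 pairs, against 12.7 to 31.7 in the other wild-type pairs. Beside Kap, 4 genes were at 0 in wild-type mouse 2 and at 10 CPM or more in the other wild-type mice. They were the neighbouring mitochondrial genes mt-Atp8, mt-Co3 and mt-Atp6 and a gene known by a clone name, and 1 gene, Azgp1, was so in wild-type mouse 1. Without these 6 genes the pairs of wild-type mouse 2 were still at 87.1 to 120.0 per degree of freedom, against 12.5 to 31.5. Summed CPM of 5 proximal tubule markers was 1122 to 2011 in sick knock-in, 9413 to 13172 in healthy knock-in and 8401 to 11275 in wild-type libraries. Summed CPM of 3 fibroblast markers was 908 to 1826 in sick knock-in, 155 to 297 in healthy knock-in and 158 to 213 in wild-type libraries, and that of 2 macrophage markers was 115 to 195 in sick knock-in, 19.8 to 24.3 in healthy knock-in and 10.1 to 27.7 in wild-type libraries. Summed CPM of 5 urothelium markers was 25.7 to 176 in sick knock-in, 3.35 to 63.6 in healthy knock-in and 2.17 to 5.84 in wild-type libraries, and that of 4 skeletal muscle markers was 0.973 to 9.76 in sick knock-in, 139 to 227 in healthy knock-in and 0.405 to 1.63 in wild-type libraries. Marker sums of 3 other nephron segments did not overlap between sick knock-in and the remaining libraries. These sums were lower in sick knock-in for distal convoluted tubule and intercalated cells and higher for principal cells. Sums of 3 thick ascending limb markers overlapped between the groups. They were 442 to 3790 CPM in sick knock-in, 1438 to 5124 in healthy knock-in and 3570 to 4490 in wild-type libraries. Summed CPM of 3 distal convoluted tubule markers was 72.5 to 126 in sick knock-in, 316 to 474 in healthy knock-in and 344 to 495 in wild-type libraries, and that of 3 intercalated cell markers was 30.5 to 69.5 in sick knock-in, 81.0 to 105 in healthy knock-in and 86.2 to 113 in wild-type libraries. For 3 principal cell markers it was 383 to 910 in sick knock-in, 187 to 350 in healthy knock-in and 200 to 320 in wild-type libraries. Of these, Aqp2 alone stood apart, at 266 to 699 CPM in sick knock-in, 53.6 to 203 in healthy knock-in and 69.0 to 184 in wild-type libraries. Ranges of Aqp3 and Scnn1g overlapped, as did those of Trpm6 of the distal convoluted tubule and Atp6v1g3 of intercalated cells. Adipose tissue markers, 4 found, summed to 6.65 to 423 CPM in sick knock-in, 1.53 to 11.1 in healthy knock-in and 2.0 to 19.8 in wild-type libraries. The part of these markers in the results was not tested, and in whole kidney a smaller number of proximal tubule cells and less RNA per cell cannot be told apart. Adrenal gland markers, 5 found, summed to 3.29 to 3.77 CPM in sick knock-in, 1.83 to 2.99 in healthy knock-in and 2.35 to 3.55 in wild-type libraries, with Cyp11b1 at 0 in 8 libraries.

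Kap (ENSMUSG00000032758, GRCm38 chr6:133849851-133853762, minus strand) was the most abundant of the 6 genes. Its levels in sick knock-in mice 1 to 4 were 128, 588, 906 and 1226 CPM. In healthy knock-in mice they were 26796, 20068, 27494 and 29137 CPM, and in wild-type mice 25754, 0, 24631 and 29317 CPM. Kap thus ranked 1012, 87, 62 and 30 among all genes in the sick knock-in libraries, against 2 in every healthy knock-in library and in 3 of 4 wild-type libraries. All 4 sick knock-in values lay below every healthy knock-in value and below 3 of the wild-type values, and above the 0 of wild-type mouse 2, where 3 counts would have been 0.177 CPM.

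Against wild-type mice Kap fell by 4.81 ± 1.63 on the log2 scale (SE, adjusted p = 0.0258 by edgeR's quasi-likelihood test with Benjamini-Hochberg adjustment). Without wild-type mouse 2 it fell by 5.23 ± 0.61 (adjusted p = 4.36e-05), and the sick knock-in mean of 712 ± 469 CPM (SD, n = 4) was 2.68% of the wild-type mean of 26567 ± 2447 CPM (n = 3). With all 4 wild-type mice it was 3.57% of their mean of 19926 ± 13433 CPM. Against healthy knock-in mice Kap fell by 5.18 ± 1.66 (adjusted p = 0.0215), and by 5.19 ± 0.59 (adjusted p = 3.83e-05) when wild-type mouse 2 was left out of the shared fit. With wild-type mouse 2 kept, the call was lost without sick knock-in mouse 1 (adjusted p = 0.0622 against wild-type and 0.0535 against healthy knock-in mice) or mouse 2 (0.0632 and 0.0551).

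**Figure D1:**
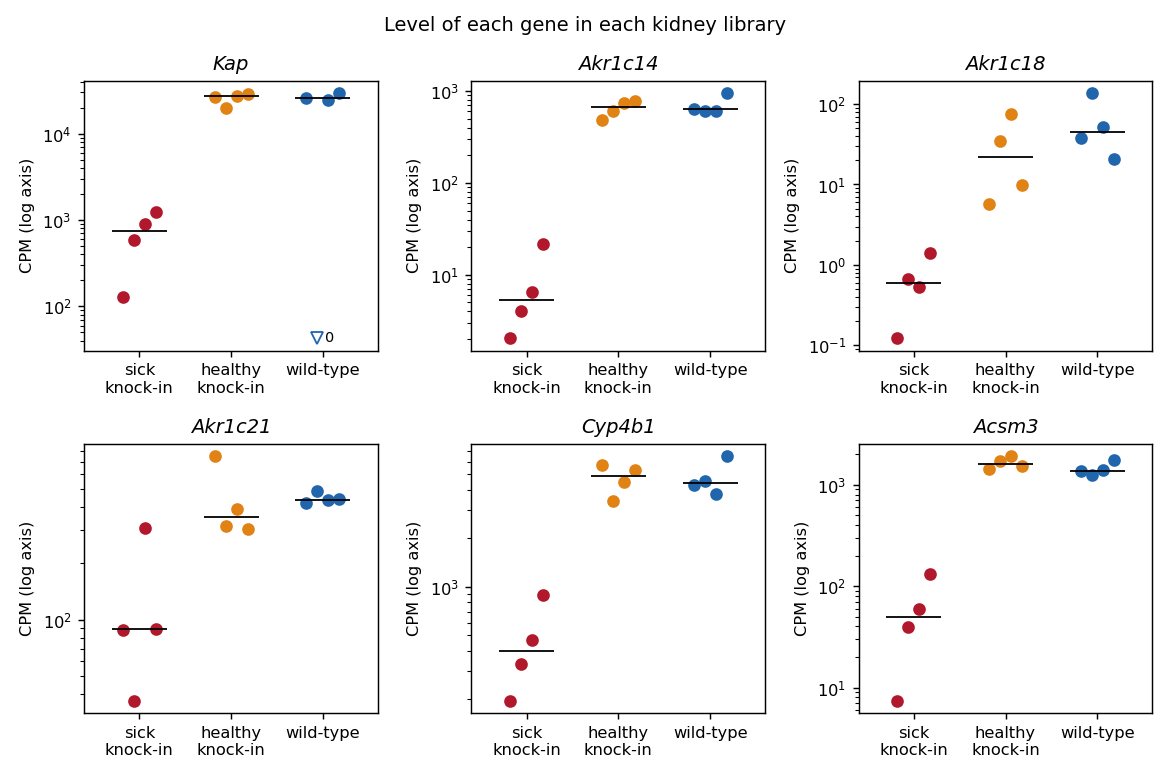
Level of each gene in CPM on a log axis in each kidney library, with 4 sick knock-in, 4 healthy knock-in and 4 wild-type mice, and a line at the median of the libraries above 0. Sick knock-in points sit lowest in each panel except for Kap in wild-type mouse 2, drawn as an open triangle for its 0, and for Akr1c21, where sick knock-in mouse 3 at 308.3 CPM lies level with the lowest healthy knock-in mouse at 307.0 CPM.

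Akr1c14 (ENSMUSG00000033715, chr13:4049011-4090688, plus strand) encodes a hydroxysteroid dehydrogenase that acts on dihydrotestosterone and related steroids. It was measured at 2.03, 4.08, 6.52 and 21.4 CPM in sick knock-in mice. Levels were 482, 609, 740.3 and 784 CPM in healthy knock-in mice and 646, 615, 604 and 947 CPM in wild-type mice. The sick knock-in values did not overlap those of either other group, and the highest of them was that of mouse 4. Akr1c14 fell by 6.38 ± 0.64 on the log2 scale against wild-type mice (adjusted p = 1.0e-05) and fell by 6.27 ± 0.64 against healthy knock-in mice (adjusted p = 1.36e-05). Of 15589 genes tested, 10 had a lower log2 fold change against wild-type mice. Without sick knock-in mouse 4 the values were -7.41 and -7.31.

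Akr1c18 (ENSMUSG00000021214, chr13:4132615-4150654, minus strand) encodes the enzyme that converts progesterone to a less active steroid. It was close to undetected in sick knock-in mice, with 3, 20, 7 and 27 counts or 0.122, 0.664, 0.537 and 1.39 CPM. Healthy knock-in mice had 5.66, 34.5, 74.6 and 9.82 CPM and wild-type mice 37.5, 136, 51.3 and 20.6 CPM. Outside the sick knock-in group, and leaving aside the 0 of Kap, it was the most variable of the 6, with the highest healthy knock-in mouse at 13.2 times the lowest and the highest wild-type mouse at 6.60 times the lowest, yet the sick knock-in values stayed below all of them. Akr1c18 fell by 6.52 ± 1.0 on the log2 scale against wild-type mice (adjusted p = 0.000180) and fell by 5.54 ± 0.97 against healthy knock-in mice (adjusted p = 0.000579). Single mice moved the size, to -5.77 without wild-type mouse 2 and -7.11 without sick knock-in mouse 4 against wild-type mice, and to -4.64 without healthy knock-in mouse 3 and -6.13 without sick knock-in mouse 4 against healthy knock-in mice.

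Akr1c21 (ENSMUSG00000021207, chr13:4574075-4586541, plus strand) encodes a hydroxysteroid dehydrogenase that forms epitestosterone, an inactive relative of testosterone. Its levels were 88.3, 36.7, 308.3 and 89.3 CPM in sick knock-in mice. They were 749, 316, 390.3 and 307.0 CPM in healthy knock-in mice and 418, 487, 435 and 441 CPM in wild-type mice. The sick knock-in mice lay below all wild-type mice, while sick knock-in mouse 3 overlapped the healthy knock-in range. Akr1c21 fell by 1.77 ± 0.51 on the log2 scale against wild-type mice (adjusted p = 0.0119) and fell by 1.76 ± 0.51 against healthy knock-in mice (adjusted p = 0.0138), the smallest differences of the 6 genes. Without sick knock-in mouse 3 they were -2.65 and -2.63.

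Cyp4b1 (ENSMUSG00000028713, chr4:115624725-115647723, minus strand) was measured at 195, 331, 469 and 896 CPM in sick knock-in mice. It reached 5724, 3426, 4486 and 5298 CPM in healthy knock-in mice and 4289, 4522, 3765 and 6511 CPM in wild-type mice. The groups did not overlap, and the sick knock-in mean was 9.90% of the wild-type mean. Cyp4b1 fell by 3.34 ± 0.42 on the log2 scale against wild-type mice (adjusted p = 4.20e-05) and fell by 3.33 ± 0.42 against healthy knock-in mice (adjusted p = 5.53e-05). No single mouse moved either value by more than 1.5 times.

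Acsm3 (ENSMUSG00000030935, chr7:119760923-119787513, plus strand) stood at 7.34, 39.9, 59.6 and 131 CPM in sick knock-in mice. Its levels were 1427, 1697, 1923 and 1516 CPM in healthy knock-in mice and 1352, 1259, 1413 and 1738 CPM in wild-type mice. The groups did not overlap, and sick knock-in mice 1 and 4 differed 17.9 times, the widest spread among values above 0 of any of the 6 genes in any group. Acsm3 fell by 4.60 ± 0.63 on the log2 scale against wild-type mice (adjusted p = 7.98e-05) and fell by 4.79 ± 0.64 against healthy knock-in mice (adjusted p = 7.86e-05), with -5.34 and -5.53 without sick knock-in mouse 4. Eri2, a gene on the opposite strand, covers 1962 of the 4936 exon bases of Acsm3, and without stated strand its reads and those of Acsm3 cannot be told apart. Eri2 also fell, by 4.22 ± 0.48 on the log2 scale against wild-type mice (adjusted p = 1.92e-05). It had 13.2, 22.9, 42.4 and 76.4 CPM in sick knock-in mice, 572 to 718 CPM in healthy knock-in mice and 550.2 to 1109.9 CPM in wild-type mice.

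Of the 6 genes, 6 passed as lower in sick knock-in than in wild-type mice, where 25.0% of all genes tested did so, and 6 passed as lower than in healthy knock-in mice, where 21.9% of all genes did so. The sick knock-in values of 5 of the 6 lay below all wild-type values, with 20.6% of all genes doing so, and those of all 6 did so without wild-type mouse 2, with 26.3% of all genes doing so. Those of 5 of the 6, with Akr1c21 in place of Kap as the exception, lay below all healthy knock-in values, with 23.2% of all genes doing so. The median log2 fold change of the 6 was -4.70 against wild-type mice and -4.98 against healthy knock-in mice, beside 0.02 and 0.05 over all genes tested. Without wild-type mouse 2 all 6 passed as lower in both comparisons, with medians of -4.95 and -4.99, beside 0.03 and 0.05 over all genes tested. These 2 comparisons share the sick knock-in libraries. In the authors' deposited table the log2 fold change of Kap against wild-type mice was -1.45 (adjusted p = 0.562) and that of Akr1c21 was -1.60 (adjusted p = 0.0570), while the other 4 genes had adjusted p of 7.02e-08 or below there. Against healthy knock-in mice the authors' deposited table gave -1.66 for Kap (adjusted p = 0.411) and -1.59 for Akr1c21 (adjusted p = 0.0717).

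Between healthy knock-in and wild-type mice, 0 of the 6 genes passed by edgeR's quasi-likelihood test, where 0.314% of all genes tested passed in either direction. At an unadjusted p below 0.05 the count was also 0, as it was with DESeq2 and with limma-voom. The log2 fold changes were 0.38 ± 1.39 for Kap (adjusted p = 0.963), -0.11 ± 0.51 for Akr1c14 (0.973), -0.98 ± 0.74 for Akr1c18 (0.912), -0.02 ± 0.50 for Akr1c21 (0.998), -0.01 ± 0.39 for Cyp4b1 (0.998) and 0.19 ± 0.54 for Acsm3 (0.956). The groups overlapped for all 6 genes, while 1.8% of all genes were lower and 2.17% higher without overlap. Without wild-type mouse 2 the value of Kap was -0.04 ± 0.54 and that of Akr1c18 was -0.22 ± 0.72. Akr1c18 was at -1.88 ± 0.74 (adjusted p = 0.965 by edgeR) without healthy knock-in mouse 3, and at -0.63 to -1.27 without any of the other 6 mice of these groups. A value that missed the threshold does not show equal levels.

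**Figure D2:**
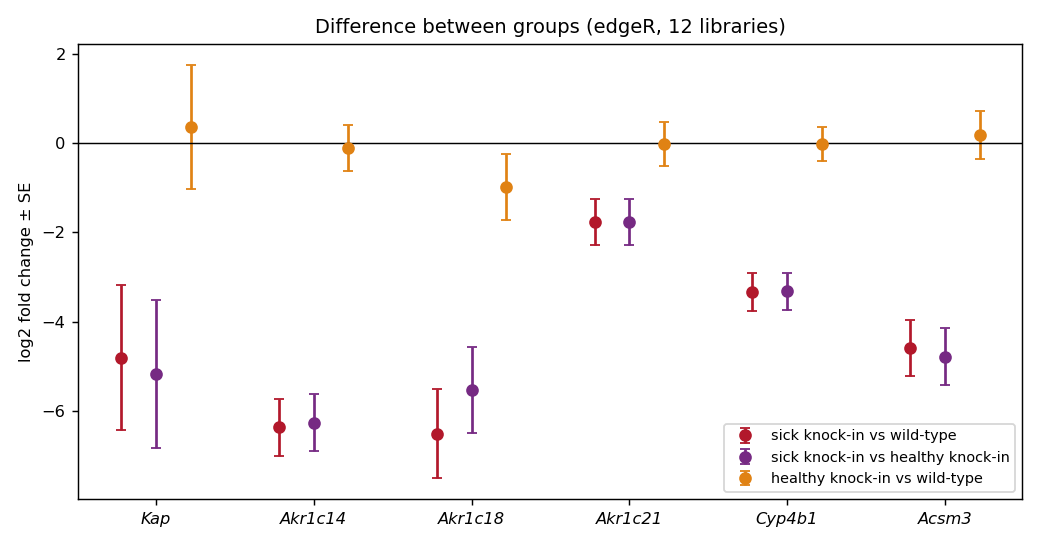
Log2 fold change of each gene with its SE from the edgeR fit of all 12 libraries, for sick knock-in against wild-type mice, sick knock-in against healthy knock-in mice and healthy knock-in against wild-type mice. Sick knock-in values run from -1.77 for Akr1c21 to -6.52 for Akr1c18 against wild-type mice and from -1.76 to -6.27 (Akr1c14) against healthy knock-in mice, while the healthy knock-in values lie within 1 SE of 0 except for Akr1c18 at -0.98 ± 0.74.

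The sick knock-in mice kept nearly the same order from gene to gene. Mouse 1 was the lowest and mouse 4 the highest of the 4 for Kap, Akr1c14, Akr1c18, Cyp4b1 and Acsm3. Akr1c21 broke this order, with mouse 2 lowest and mouse 3 highest. Within the sick knock-in group the highest mouse was 9.61 times the lowest for Kap, 10.5 times for Akr1c14, 11.4 times for Akr1c18, 8.39 times for Akr1c21 and 4.60 times for Cyp4b1. In wild-type mice the same ratio was 1.57 for Akr1c14, 6.60 for Akr1c18, 1.16 for Akr1c21, 1.73 for Cyp4b1 and 1.38 for Acsm3, and 1.19 for Kap without mouse 2. In healthy knock-in mice it was 13.2 for Akr1c18, above the ratio of that gene in sick knock-in mice. For the remaining genes it was 1.35 (Acsm3) to 2.44 (Akr1c21) in healthy knock-in mice.

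Levels of different genes were compared in CPM per kilobase of exon. In sick knock-in mice the order was Kap (1007 ± 663, SD, n = 4), Cyp4b1 (209 ± 134), Akr1c21 (87.0 ± 80.5), Acsm3 (12.1 ± 10.6), Akr1c14 (2.63 ± 2.71) and Akr1c18 (0.561 ± 0.437). The ranges of each pair of neighbours in this order overlapped, but each single sick knock-in mouse held the same order. In healthy knock-in mice it was Kap (36596 ± 5648), Cyp4b1 (2098 ± 448), Acsm3 (332 ± 44.4), Akr1c21 (293 ± 139), Akr1c14 (202 ± 42.2) and Akr1c18 (25.8 ± 26.2), where the range of Akr1c21 overlapped those of Acsm3 and Akr1c14, which did not overlap each other. In wild-type mice Kap led with 37578 ± 3461 CPM per kilobase over 3 mice without mouse 2, or 28183 ± 19000 with it, followed by Cyp4b1 (2115 ± 533, n = 4). Akr1c21 (296 ± 19.6), Acsm3 (292 ± 42.2) and Akr1c14 (217 ± 50.5) came next, and Akr1c18 was last (50.9 ± 42.6). Akr1c21 and Acsm3 differed by less than their spread. The range of Akr1c14 overlapped both, but Akr1c14 was below both in each wild-type mouse. Per kilobase, Acsm3 and Akr1c21 thus stood level in wild-type mice, whereas Acsm3 was the lower in each sick knock-in mouse. These orders rest on annotated exon lengths of 3239 bases for Akr1c14, 1502 for Akr1c21 and 4936 for Acsm3. In CPM Akr1c14 was above Akr1c21 in each wild-type mouse. Acsm3 averaged 1441 CPM in wild-type mice, against 445 for Akr1c21, and was above Akr1c21 in sick knock-in mice 2 and 4.

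To set the 6 genes against the segment that expresses them, each level was divided by the geometric mean of 12 genes shared along the proximal tubule, such as Lrp2 and Miox, in the same library. This ratio, chosen after seeing the data, does not depend on how libraries are scaled. The mean log2 CPM of the 12 genes was 7.23 to 8.13 in sick knock-in, 9.63 to 10.01 in healthy knock-in and 9.57 to 9.94 in wild-type libraries, so the yardstick itself was lower in sick knock-in mice. Against it Akr1c14 was at a log2 ratio of -5.07 ± 1.23 in sick knock-in and -0.36 ± 0.24 in wild-type mice (SD, n = 4 each), a difference of -4.71. The difference was -4.42 for Akr1c18, -3.02 for Acsm3 and -1.34 for Cyp4b1, whose highest sick knock-in ratio of 2.021 came close to the lowest wild-type ratio of 2.024. For each of these 4 genes a two-sided exact permutation test over 70 splits gave p = 0.0286, the smallest it can give, or 0.0381 with Benjamini-Hochberg adjustment over the 12 tests made on this ratio.

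Kap, without wild-type mouse 2, was at a log2 ratio of 1.46 ± 1.22 in sick knock-in mice (n = 4) and 4.82 ± 0.09 in wild-type mice (n = 3), a difference of -3.37. With these 7 mice the exact permutation test cannot go below its p of 0.0571 (adjusted 0.0686). With mouse 2 kept and 0.5 CPM added before the log2, that mouse was at -10.57 and the other wild-type mice at 4.73 to 4.90, and the difference of the means turned to 0.48 (exact permutation p = 1.0). Without mouse 2 the other differences from wild-type mice were -4.69 for Akr1c14, -3.85 for Akr1c18, -3.01 for Acsm3, -1.29 for Cyp4b1 and 0.11 for Akr1c21. Against healthy knock-in mice, with all 4 in each group, the difference of Kap was -3.41, that of Akr1c14 -4.62, that of Akr1c18 -3.13, that of Acsm3 -3.22 and that of Cyp4b1 -1.35, each with an exact permutation p of 0.0286 (adjusted 0.0381). For Akr1c18 this call rests on the scale, since with 0.5 CPM added before the log2 its difference was -2.05 (exact permutation p = 0.0857, adjusted 0.103). Akr1c21 kept its proportion to the 12 genes within the spread, at -1.01 ± 0.91 in sick knock-in, -1.10 ± 0.64 in healthy knock-in and -1.0 ± 0.24 in wild-type mice. Its differences were 0.09 against healthy knock-in mice (exact permutation p = 0.886) and -0.01 against wild-type mice (exact permutation p = 1.0).

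**Figure D3:**
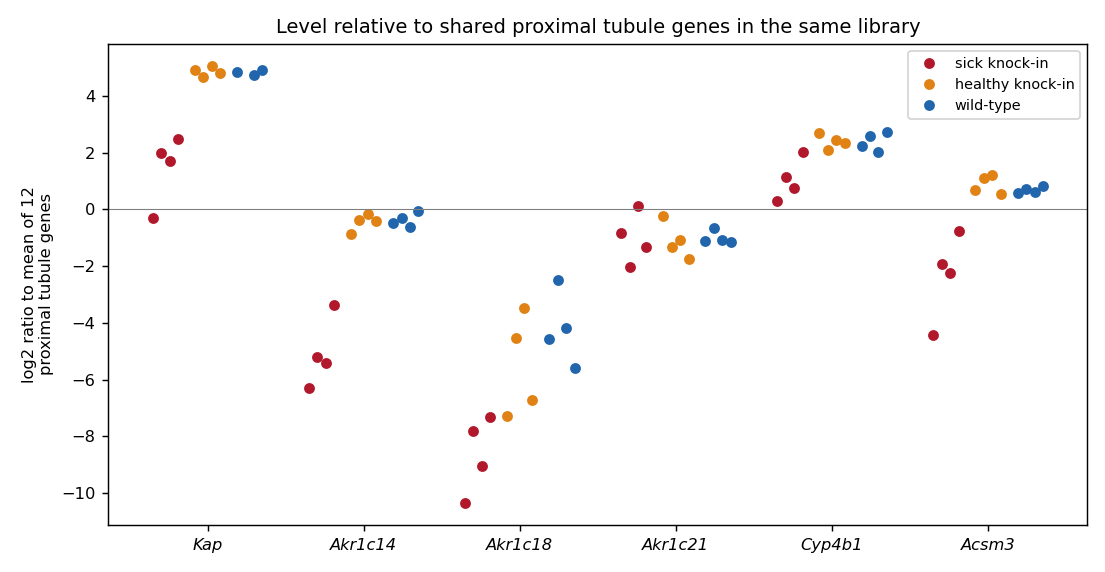
Log2 ratio of each gene to the mean of 12 shared proximal tubule genes in the same library, with 1 point per mouse for 4 sick knock-in, 4 healthy knock-in and 4 wild-type mice (3 for Kap, without mouse 2). Sick knock-in points lie below the others for Kap, Akr1c14, Cyp4b1 and Acsm3, reach -7.31 for Akr1c18 where the lowest healthy knock-in point is -7.29, and share the range of both groups for Akr1c21.

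The 3 Akr1c genes lie in 1 cluster on chromosome 13 and their longest coding frames, of 972 bases each, match at 76.8% (Akr1c14 and Akr1c18), 74.4% (Akr1c14 and Akr1c21) and 77.2% (Akr1c18 and Akr1c21) of aligned bases. Of the 50-base windows of Akr1c14 transcripts, 5.8% also occur in Gm18857, which overlaps it. For Akr1c18 0.581% occur in Akr1cl, and for Akr1c21 none occur in another gene, and these are shares of sequence, not of reads. For Cyp4b1 8.26% of windows occur elsewhere, of which those in the pseudogene Cyp4b1-ps2 make up 4.22% of the total. Summed over the 3 genes, sick knock-in libraries held 41.5 to 315 CPM, healthy knock-in libraries 959.5 to 1237 CPM and wild-type libraries 1089.7 to 1409 CPM. Akr1c21 made up 79.7% to 97.8% of this sum in sick knock-in libraries, 27.9% to 60.6% in healthy knock-in and 31.3% to 39.9% in wild-type libraries.

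Other genes of the cluster did not all fall with Akr1c14 and Akr1c18. Of 6 others on chromosome 13, 5 were tested, and 1 fell while 2 rose in sick knock-in against wild-type mice. Over all 15589 genes tested, 3901 passed as lower and 4032 as higher, so counts among 5 genes do not set the cluster apart. Akr1e1, which reduces sugars, fell by 1.58 ± 0.21 on the log2 scale (adjusted p = 5.58e-05), with 29.9 ± 9.55 CPM in sick knock-in and 89.1 ± 16.5 CPM in wild-type mice. Akr1c19 rose by 1.56 ± 0.35 (adjusted p = 0.00242), with 28.4 ± 11 CPM in sick knock-in and 9.69 ± 4.32 CPM in wild-type mice. Akr1c20 rose by 1.29 ± 0.36 (adjusted p = 0.00970) at a low level, 1.02 CPM in sick knock-in and 0.401 CPM in wild-type mice. Akr1c12 (0.49) and Akr1c13 (0.31) did not pass, and their coding frames match each other at 96.2%, so their counts are uncertain. Akr1c20 had 137 counts over all libraries, and its coding frame matches that of Akr1c6 at 92.3%, so its counts are uncertain too. With scaling by library totals alone 4 passed as higher and 1 as lower. Akr1c6, with 15 counts over all libraries, was not tested, nor was the related Akr1cl on chromosome 1, with 20.

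**Figure D4:**
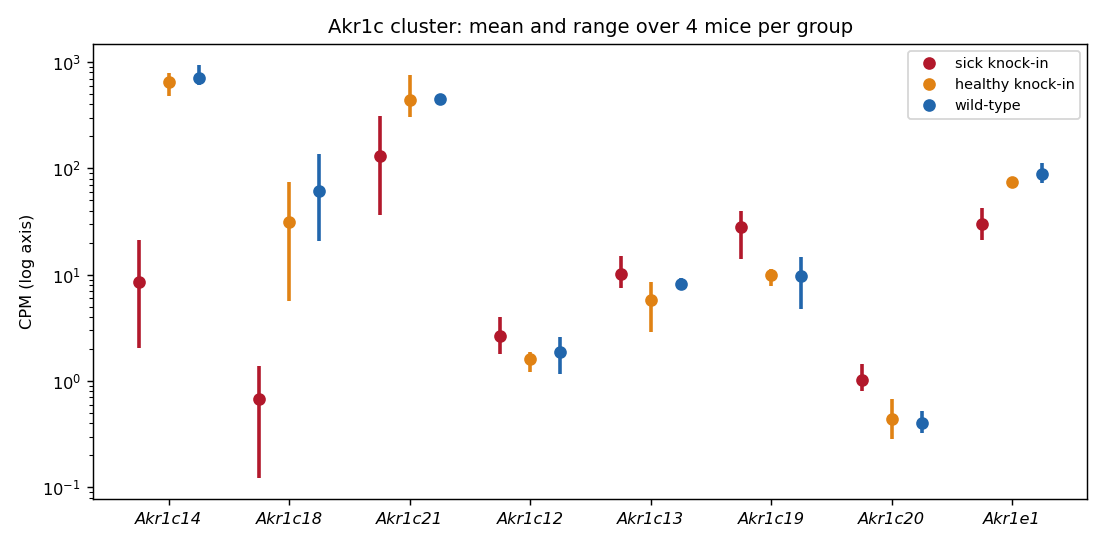
Mean level in CPM on a log axis of 8 genes of the Akr1c cluster, with bars for the range over 4 mice in sick knock-in, healthy knock-in and wild-type groups. Akr1c14 and Akr1c18 show the widest gap between sick knock-in mice and the rest, and Akr1e1 a smaller 1. Akr1c21 has its lowest mean in sick knock-in mice, but their range overlaps that of healthy knock-in mice. Akr1c19 and Akr1c20 have their highest mean in sick knock-in mice, where the range of Akr1c19 overlaps that of wild-type mice.

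The relatives of Acsm3 and Cyp4b1 were looked at in the same way. Of 4 other Acsm genes 3 were tested. All 3 fell in sick knock-in against wild-type mice, where 25.0% of all genes tested did so. Their median log2 fold change was -3.44. Acsm2 fell by 3.55 ± 0.32 (664 ± 280 CPM in sick knock-in and 7765 ± 519 CPM in wild-type mice), Acsm1 fell by 3.44 ± 0.27 and Acsm5 fell by 2.30 ± 0.20, with adjusted p of 4.99e-06 or below. Acsm4, with 19 counts over all libraries, was not tested. Of 18 other Cyp4 names 16 were found and 14 tested, of which 5 fell and 5 rose, with a median of 0.28. Beside them, 3901 of all 15589 genes tested passed as lower and 4032 as higher. Cyp4a12a, a fatty acid hydroxylase known as male-specific in the mouse, fell by 4.26 ± 0.53 (adjusted p = 3.81e-05), while Cyp4a14, which is higher in females, rose by 4.94 ± 0.70 (adjusted p = 0.000101). Cyp4f14 (-2.96) and Cyp4f18 (2.27) also passed but reached at most 1.15 and 2.22 CPM in any library, and Cyp4f18 lost its call without sick knock-in mouse 2 (adjusted p = 0.0558). With library totals alone 2 Cyp4 genes passed as lower and 6 as higher.

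Of 16 other genes known for higher kidney levels in male mice than in females, 13 fell and 1 rose in sick knock-in against wild-type mice. Their median log2 fold change was -3.52. Against healthy knock-in mice 14 fell and 1 rose, with a median of -3.37. Of all genes tested, 25.0% passed as lower against wild-type and 21.9% against healthy knock-in mice. The largest changes were those of transporters. Slc7a13, an amino acid transporter of the late proximal tubule, had 17.1 ± 14.2 CPM in sick knock-in and 1004 ± 214 CPM in wild-type mice and fell by 5.89 ± 0.68 on the log2 scale. Slco1a1, an organic anion transporter induced by androgens, fell by 5.74 ± 0.95, Slc22a28 fell by 5.61 ± 0.65 and Slc22a30 fell by 5.59 ± 0.71, with adjusted p of 0.000304 or below for these 4 genes. Without sick knock-in mouse 4 the values were -7.83 for Slco1a1, -6.60 for Slc22a28 and -6.92 for Slc22a30. Aoc1, the diamine oxidase, went the other way and rose by 4.0 ± 0.41 (adjusted p = 1.07e-05), with 111 ± 7.69 CPM in sick knock-in and 6.82 ± 5.54 CPM in wild-type mice, and by 4.76 without wild-type mouse 2.

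Of 4 genes known as higher in female mouse kidney, 3 rose and 1 fell in sick knock-in against wild-type mice, with a median of 3.48. Of all 15589 genes tested, 4032 passed as higher and 3901 as lower there. Slc7a12, an amino acid transporter, had 40.2 ± 21.7 CPM in sick knock-in and 2.69 ± 0.96 CPM in wild-type mice and rose by 3.89 ± 0.54 (adjusted p = 8.91e-05). Prlr, the prolactin receptor, rose by 3.06 ± 0.56 (adjusted p = 0.000615). Cyp4a14 was at 570 ± 408 CPM in sick knock-in and 18.7 ± 17.6 CPM in wild-type mice. Its log2 fold change was 4.30 without sick knock-in mouse 3 and 5.80 without wild-type mouse 3. Slc22a7, an organic anion transporter of the late proximal tubule, fell by 7.83 ± 0.70 (adjusted p = 4.62e-06), with 1.05 ± 0.78 CPM in sick knock-in and 242 ± 174 CPM in wild-type mice, and fell by 7.20 without wild-type mouse 2. In healthy knock-in against wild-type mice 0 of the 16 male-high and 0 of the 4 female-high genes passed by edgeR's quasi-likelihood test, and 0 of each had an unadjusted p below 0.05. With limma-voom 1 of the 16 passed as higher.

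Genes of hormone metabolism did not all move in 1 direction. Srd5a1, 1 of the reductases that turn testosterone into dihydrotestosterone, rose by 2.09 ± 0.27 (adjusted p = 5.30e-05), with 84.8 ± 36.5 CPM in sick knock-in and 19.9 ± 2.24 CPM in wild-type mice. Srd5a2, the other of these reductases, fell by 3.35 ± 0.51 (adjusted p = 0.000174) at a low level, 0.411 ± 0.164 CPM in sick knock-in and 4.06 ± 2.91 CPM in wild-type mice, and by 2.72 without wild-type mouse 4. The steroid dehydrogenases Hsd17b11 (-3.30 ± 0.23) and Hsd17b2 (-2.30 ± 0.47) also fell. Of 17 genes of steroid and growth hormone receptors and androgen metabolism, 8 fell and 1 rose, with a median of -0.63. Over all 15589 genes tested, 3901 passed as lower and 4032 as higher in this comparison. With library totals alone 8 fell and 5 rose. Hormone levels were not analysed here.

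**Figure D5:**
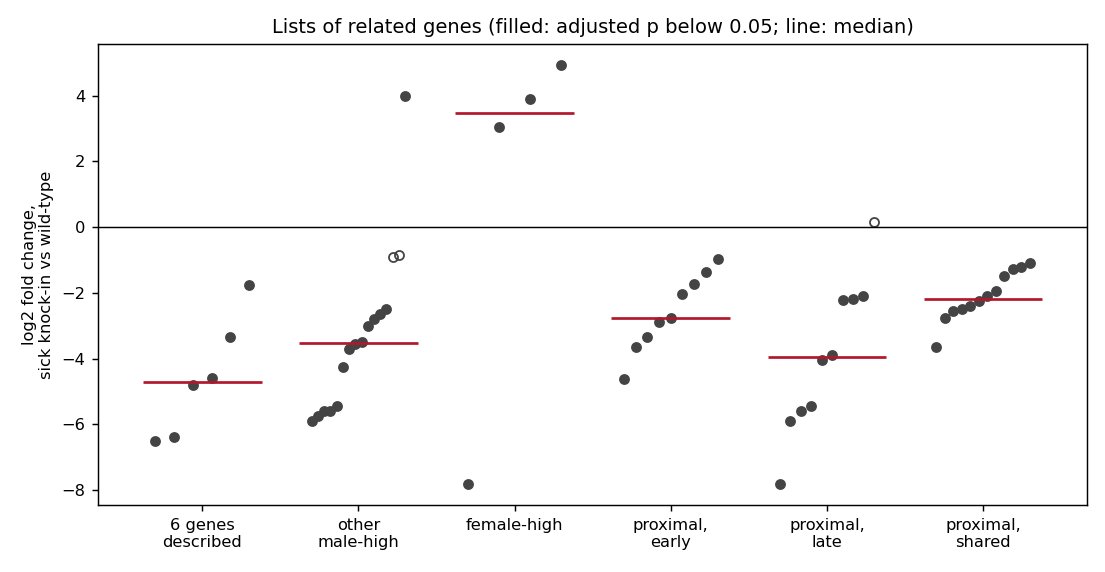
Log2 fold change of sick knock-in against wild-type mice for the tested genes of 6 lists, filled where the adjusted p is below 0.05, with a line at the median. The 6 genes described (median -4.70) and the other male-high genes (-3.52) lie mostly below 0, 3 of 4 female-high genes lie above it, and the 3 lists of proximal tubule genes have medians of -2.78 (early), -3.96 (late) and -2.17 (shared).

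Genes of the proximal tubule fell as well, where 25.0% of all genes tested passed as lower against wild-type mice. All 9 genes of its early segments fell in sick knock-in against wild-type mice, with a median log2 fold change of -2.78, among them the glucose transporter Slc5a2 (-3.33 ± 0.25) and the phosphate transporters Slc34a1 (-2.89 ± 0.30) and Slc34a3 (-4.62 ± 0.41). Of 10 genes of the late segment 9 fell, with a median of -3.96, and the glucose transporter Slc5a1 did not pass at 0.15 ± 0.25. All 12 shared genes fell, with a median of -2.17, including Lrp2 (-2.77 ± 0.28), the receptor that takes up filtered protein, and Miox (-3.66 ± 0.50), which starts inositol breakdown and was at -4.29 without sick knock-in mouse 3. With library totals alone 8 of the early, 9 of the late and 11 of the shared genes fell. The lists overlap, since 4 genes of the late segment, Slc22a7, Slc7a13, Slc22a30 and Cyp7b1, are also on the sex-biased lists. Acsm2 and Cyp4a12a, counted with the relatives of Acsm3 and Cyp4b1, are also on the male-high list, and Cyp4a14 is also on the female-high list. Of the 6 genes described here, Kap, Akr1c14, Akr1c18 and Acsm3 lay below the medians of all 3 lists, Cyp4b1 at -3.34 lay below those of the early and shared lists, and Akr1c21 at -1.77 lay above all 3.

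The genes most like each of the 6 in pattern were found among 12986 genes by the root mean square difference of log2(CPM + 0.5), centred on its mean over the libraries. These libraries share 3 groups, so the measure describes likeness and was not tested. Without wild-type mouse 2, over 11 libraries, Acsm3 was the nearest gene to Kap at 0.31, followed by Slc7a13 at 0.47, Slc22a28 at 0.53 and Pzp at 0.54. Over all 12 libraries the 3 nearest to Kap were mt-Atp8 (1.90), mt-Atp6 (1.92) and then mt-Co3 (1.93), all of which share its 0 in wild-type mouse 2, and Acsm3 was at 4.22. Akr1c14 was nearest to Slc7a13 (0.51), Pzp (0.54), Slc22a30 (0.56) and Slco1a1 (0.60). Acsm3 over 12 libraries was nearest to Ugt2b38 (0.58), Slc7a13 (0.59), Slc22a28 (0.59) and Pzp (0.61).

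Akr1c18 stood apart from these and was nearest to Cyp7b1 (0.50), an enzyme that hydroxylates oxysterols and steroids, then to Nccrp1 (0.63), Slc22a26 (0.87) and Slc22a19 (0.88). Cyp7b1 had 3.65 to 10.7 CPM in sick knock-in mice. Like Akr1c18 it was highest in mouse 3 of the healthy knock-in mice, at 408 CPM, and in mouse 2 of the wild-type mice, at 533 CPM. Akr1c21 was nearest to Spp2 (0.44), Acad10 (0.45), Pbld2 (0.45) and Cml1 (0.47), and Cyp4b1 to Ldhd (0.22), Osbp2 (0.26), Acsm2 (0.28) and Proc (0.28). Between members, Kap and Akr1c14 differed by 0.69 without wild-type mouse 2, and Akr1c14 and Akr1c21 by 2.35 over 12 libraries.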

How the data were processed

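Trueseq libraries were made from DNase-treated RNA of 12 kidneys, 1 per mouse, per the labels' protocols. Per the submitters' processing notes, the build was GRCm38 and the tools included TopHat2 2.0.11, Trim Galore 0.3.7, DESeq2 1.12.4 and Cufflinks. Not given in the sources used here are how reads were counted, with which annotation, and whether by strand. Per the file headers, the authors deposited raw counts for each Ensembl gene beside their own log2 fold changes and adjusted p-values. Libraries with fewer total counts give wider errors for genes of low counts.

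The deposited counts were tested with edgeR (version 4.0.16, under R 4.3.3). After filterByExpr and TMM scaling, all 12 libraries were fitted together by quasi-likelihood with a coefficient per group. The threshold was a Benjamini-Hochberg adjusted p of 0.05 over all 15589 genes. Alternatives were DESeq2 1.42.0, its size factors, limma-voom (limma 3.58.1), library totals, other filters, 2 groups alone, a replicate block and each library left out. On simulated data for sick knock-in against wild-type mice (15355 genes), the test recovered 93 of 100 log2 changes of size 2 and 51 of 100 of size 1, and 6 of its 150 calls were false. Only these genes were changed there, as many raised as lowered. In the data 7933 of 15589 genes passed in this comparison, so these rates need not hold there. Chi-square tests of counts found no pair of libraries within sampling noise, and the pairs of wild-type mouse 2 lay farthest apart. Deviations of same-numbered libraries correlated at -0.26 to 0.24, which was not tested. Positions and exon lengths are from GENCODE M21 (GRCm38), promoters from RefSeq (GRCm38.p6).

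The 6 genes, the lists and the tests were chosen with earlier results of these data known. Beside the 6 genes, named genes are all tested and untested members of lists of 7 or fewer, and of longer lists Srd5a1, Srd5a2, the 4 largest changes past the threshold and up to 2 against the direction of most. Gene likeness used genes at 1 CPM or more on average. Named outside this rule after their values were seen are Eri2, Slc5a1, Azgp1 and the mitochondrial genes. A gene of these lists is not reported here.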

Additional observations from a re-analysis of the deposited data

Results flagged for a closer look

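In 18 sets of 4 values, the 6 genes in each of the 3 groups, a single mouse stood far from the other 3 on 2 occasions, and chance alone sets about 1 in 20 such sets apart. Kap was at 0.0 CPM in wild-type mouse 2, against a range of 24631 to 29317 CPM over the 3 remaining wild-type mice, and the gap to the nearest was 0.840 of the whole range. Akr1c14 was at 947 CPM in wild-type mouse 4, against 604 to 646 CPM over the remaining wild-type mice, with a gap of 0.876 of the range.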

How the results depend on the processing

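Over 18 results (6 genes in 3 comparisons), 294 values under alternatives were made, of which 275 kept direction and side of the threshold, 6 lost the call and 13 turned direction, and the cause was not tested. All 6 lost calls were of Kap in sick knock-in mice. Against wild-type mice Kap was at -4.80 (adjusted p = 0.0598) with the 2 groups alone and at -4.60 (adjusted p = 0.0715) with a replicate block. With single libraries left out it ranged from -5.23 to -4.46 against wild-type and from -5.58 to -4.84 against healthy knock-in mice. All 13 turns were in healthy knock-in against wild-type mice, where nothing passed: Akr1c21 was at 0.025 and Cyp4b1 at 0.098 with limma-voom, and Cyp4b1 at 0.023 with the replicate block. With single libraries left out there, Kap ranged from -0.038 to 0.62, Akr1c18 from -1.88 to -0.22, Akr1c14 from -0.20 to 0.072, Akr1c21 from -0.40 to 0.13 and Cyp4b1 from -0.12 to 0.18. Genes passing there were 49, 81 with DESeq2 and 86 with limma-voom. The replicate numbers are not stated to pair mice. Deviations of same-numbered mice correlated at -0.26 to 0.24, which was not tested and cannot settle pairing. The block changed no other call of the 6 genes. Library totals alone shifted the median log2 fold change of all genes to 0.61 against wild-type and 0.63 against healthy knock-in mice, and 84.0% and 85.8% of calls were then higher, beside 50.8% and 52.7% with TMM. All 6 genes still passed as lower, with Akr1c21 at -1.22 (adjusted p = 0.0410) and -1.21 (adjusted p = 0.0423). The fit of sick against healthy knock-in mice without wild-type mouse 2 and the ratio to proximal tubule genes, with and without an offset and wild-type mouse 2, were added after seeing the data.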
